A study of Oryza sativa Indica Group with 6 samples.

Results

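Calcium sensor kinases and the CBL proteins were followed in seedlings of 3 rice T-DNA insertion lines. A gene was a member when its symbol or a synonym reads CBL, CIPK, CPK or CDPK with a number, with or without the prefix Os. It also needed a probe set that the platform's probe-to-gene table assigns to it alone, although some of these can bind related transcripts. The rule found 51 genes with 65 probe sets among 17905 genes with such a probe set. They are 7 CBL, 24 CIPK and 20 CPK genes. For each, the probe set that was brightest on average over the 6 arrays stands for the gene, and CIPK10, which has 4 probe sets, is described on all of them. No signal entered the rule itself, but the rule was set with earlier results of these data known.

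Calcium acts as a second messenger in plants: cold, salt, drought, wounding and microbes raise its level in the cytosol, and sensor proteins read the rise. CBL proteins (calcineurin B-like) are small sensors that bind calcium but have no kinase activity of their own. They bind CIPK proteins (CBL-interacting protein kinases), bring them to a membrane and switch them on, and the targets include ion channels and transporters such as the potassium channel AKT1 and sodium exchangers. CPK proteins (also CDPK, calcium-dependent protein kinases) carry the calcium-binding domain and the kinase in 1 chain and need no separate sensor.

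The lines are named OsPE, Osoc and Ossl, carry T-DNA insertions in a Basmati background, and were grown under optimal conditions without a treatment. Each has 2 Affymetrix rice arrays, called biological replications in the labels, of total RNA from seedlings at day 15 after germination. Nothing in the sources used here says what the line names stand for, where the T-DNA lies, or whether the seedlings of the replicates were grown apart, so p-values measure the spread between these samples, which may be technical. There is no untransformed line among the samples, so each line was set against the other two, and the 3 comparisons share arrays. Values are the deposited signals on a linear scale, mean ± SD (n = 2), and folds and log2 differences were taken on signal + 16.

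On all 6 arrays the signals had the same trimmed mean of 500.1, and the 40th percentile, used as the floor for testing, lay between 22.5 and 26. Log2 signals correlated at 0.972 to 0.976 between arrays of the same line and at 0.962 to 0.969 between lines, across probe sets. The Ossl arrays stood apart in the spiked bacterial poly-A controls: over 12 probe sets near the 5′ ends the mean log2 signal was 7.56 on both, against 8.80 and 8.81 in OsPE and 9.01 and 9.05 in Osoc. Over 12 probe sets near the 3′ ends it was also lowest in Ossl, at 9.82 and 9.85, against 10.31 and 10.36 in OsPE and 10.38 and 10.40 in Osoc. The ratio of 3′ to 5′ signal of actin was 13.0 and 14.5 in Ossl, 10.7 and 11.4 in OsPE, and 8.97 and 10.3 in Osoc. For GAPDH, whose ratio was 8.95 and 9.26 in Ossl, 8.58 and 8.98 in OsPE, and 7.61 and 8.20 in Osoc, Ossl and OsPE overlapped. Osoc stood apart as well, with the highest 5′ poly-A signals and the lowest actin and GAPDH ratios. The part of these differences in the results on Ossl and on Osoc was not tested. In bulk seedlings, fewer cells of a type and less RNA per cell cannot be told apart.

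The members called in at least 1 comparison were 11 of 24 CIPK, 7 of 18 CPK and 0 of 7 CBL genes. Those are 45.8%, 38.9% and 0%, beside 25.7% of all genes with 1 probe set each. Among as few as 7 genes, 0 calls say little, and whether the families differ in this was not tested. Nearly all called differences were under 1.5-fold. Of the 49 members tested, 8 passed between Osoc and OsPE, which is 16.3% against 7.46% of all probe sets tested. In Osoc 1 was the higher and 7 the lower, against 3.61% and 3.85% of all probe sets. Between Ossl and OsPE 6 passed, which is 12.2% against 7.92% of all probe sets. None of these was higher in Ossl and 6 were lower, against 4.11% and 3.81%. Between Ossl and Osoc 13 passed, which is 26.5% against 11.2%. Of them 9 had the higher signal in Ossl and 4 the lower, against 5.93% and 5.27% of all probe sets. Probe sets of named genes are called more often than the whole array: with 1 probe set per gene, 11.9%, 11.7% and 17.1% of 16455 genes were called in these comparisons. Read against those shares, the members were called at 12.2% against 11.7% in Ossl and OsPE, close to the background. In Osoc and OsPE it was 16.3% against 11.9%, 8 of 49 genes and also not far from the background. Between Ossl and Osoc it was 26.5% against 17.1%. Whether any of these shares exceeds the background was not tested.

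The median log2 difference of the members was -0.14 in Osoc relative to OsPE, -0.03 in Ossl relative to OsPE and 0.08 in Ossl relative to Osoc, beside -0.04, -0.01 and 0.02 over all genes with 1 probe set each. In all, 18 of the 49 members (36.7%) differed in at least 1 comparison, beside 16.8% of all probe sets and 25.7% of genes with 1 probe set each, and 31 differed in none by the test. The F test also called 18, beside 14.8% of probe sets and 22.7% of genes. The number called in these comparisons rests on the way limma models the variance. Without the trend of the variance on the signal it was 0 in each, beside 0.0707%, 0.964% and 1.01% of all probe sets. Those counts are near the background of that fit. In it 11, 8 and 16 members had an unadjusted p below 0.05, for which no share of all probe sets is given. Centring each array on its median gave 4, 6 and 8 members, beside 5.34%, 5.96% and 8.71% of all probe sets. With any 1 array of the compared lines left out, fewer members were called in Osoc against OsPE and in Ossl against Osoc. The fewest were left without OsPE replicate 1 or Osoc replicate 1 in the former, and without Osoc replicate 1 in the latter. In all these fits the share of all probe sets called fell as well. This bears also on the counts of families and lists with 1 array left out, given below.

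**Figure D1:**
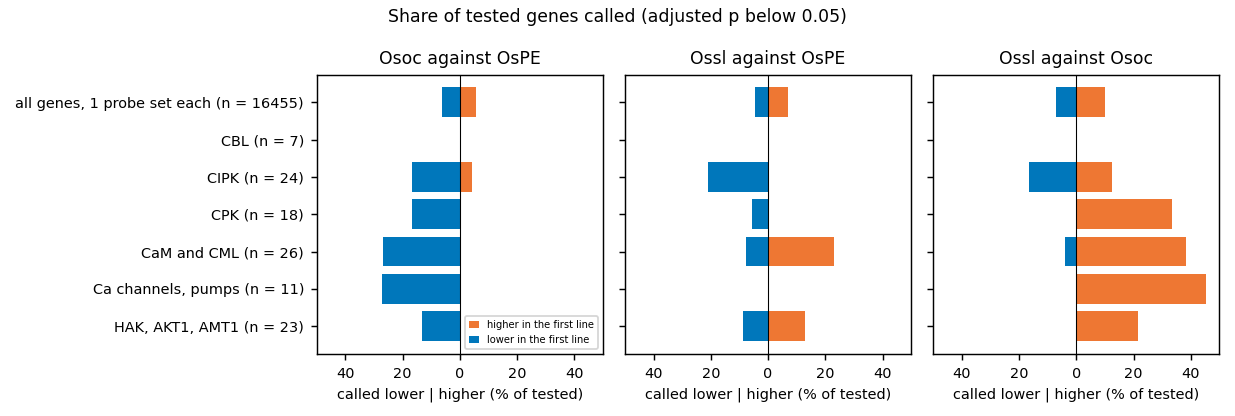
Share of tested genes called at adjusted p below 0.05, as bars to the right (higher in the line named first) and to the left (lower), in percent of the genes tested, for the 3 comparisons. The CBL row has no bar in any panel, while CPK genes have bars to the left in Osoc against OsPE and to the right in Ossl against Osoc.

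**Figure D2:**
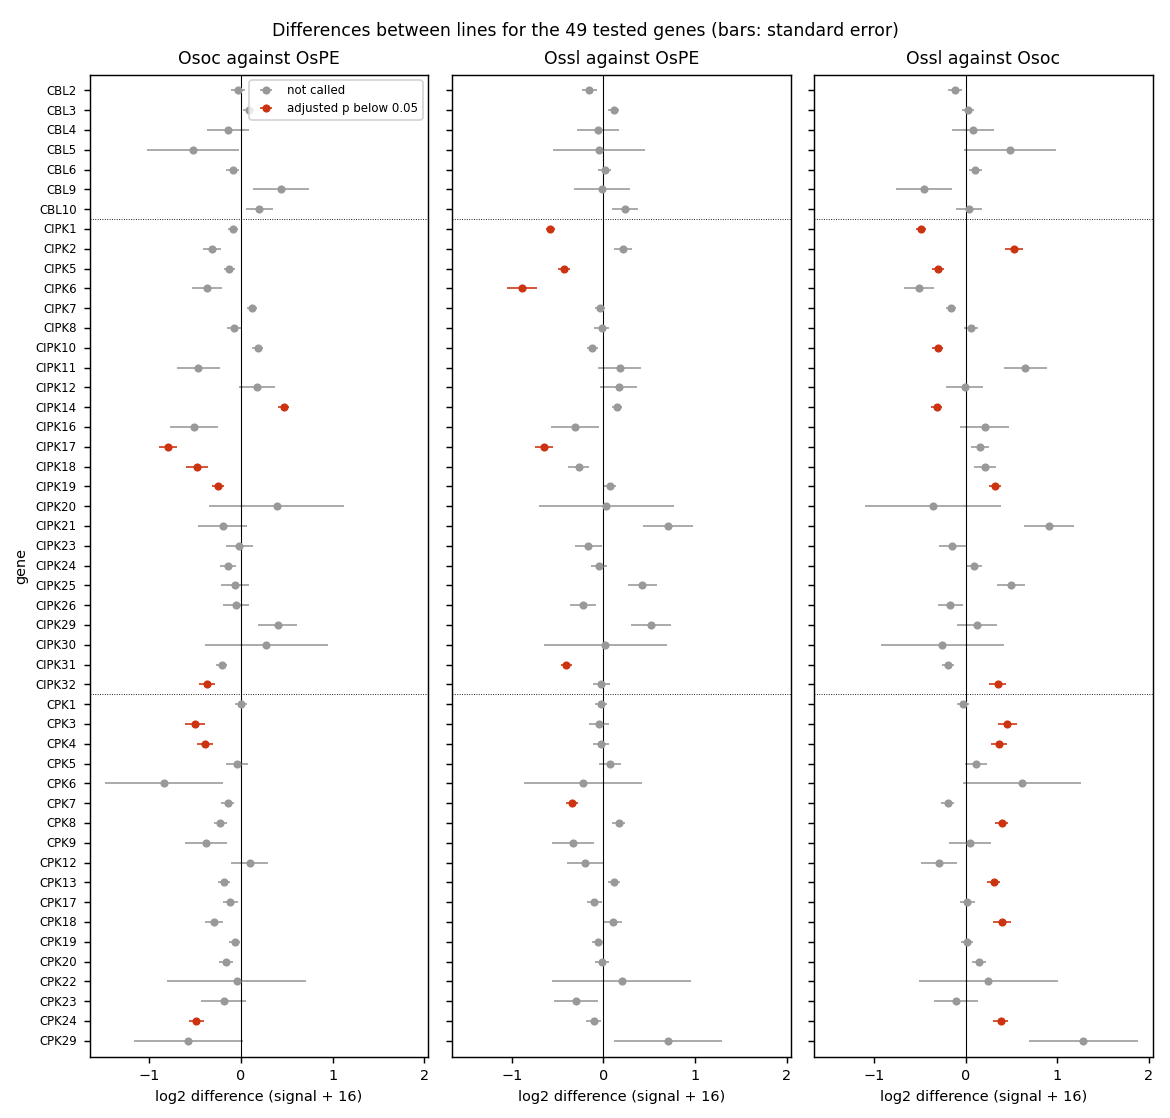
Log2 difference of signal + 16 with its standard error for each of the 49 tested genes in the 3 comparisons; the points in colour passed the test. Most points lie within 0.5 of 0, and the wide bars belong to genes with low signals.

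None of the 7 CBL genes passed the test. By limma 0 of them were called in any comparison, beside the 11.9%, 11.7% and 17.1% of all genes, shares at which 0 calls among 7 genes are near the background. Of them 0 had an unadjusted p below 0.05, and the count stayed at 0 in every alternative fit. The brightest, CBL6, had signals of 3489.5 and 3795.5 in OsPE, 3520.8 and 3302.6 in Osoc, and 3634.2 and 3713.6 in Ossl, so OsPE overlapped with both other lines, while both Ossl arrays lay above the Osoc arrays. Its log2 difference was -0.09 for Osoc against OsPE (95% interval -0.24 to 0.06), 0.01 for Ossl against OsPE (-0.14 to 0.16) and 0.11 for Ossl against Osoc (-0.04 to 0.26, adjusted p = 0.406).

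CBL3 read 3094 ± 47.7, 3275 ± 96.6 and 3342 ± 64.3 in OsPE, Osoc and Ossl, and its largest log2 difference, Ossl against OsPE, was 0.11 (95% interval -0.03 to 0.25). CBL2 read 1556 ± 12.4, 1520 ± 27.5 and 1400 ± 9.83, and for Ossl against OsPE its log2 difference was -0.15 (-0.32 to 0.02, adjusted p = 0.305). The intervals of these 3 sensors reach no further than 0.32 on the log2 scale in either direction. Over the arrays CBL10 lay between 396.1 and 543.6, CBL4 between 190.4 and 313.6, CBL9 between 67.7 and 121.5, and CBL5 between 21.9 and 75.6, which is near the floor. For these dimmer sensors larger differences cannot be told from the spread: the interval for Osoc against OsPE ran from -0.64 to 0.36 for CBL4 and from -1.62 to 0.56 for CBL5. CBL9 is read by probe sets that can bind related transcripts, and the gene named CBL5 here also carries the synonym CBL2.

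Some CIPK kinases were called in each of the 3 comparisons, and none without the variance trend. Of 24 tested, 5 were called in Osoc relative to OsPE (1 up, 4 down), 5 in Ossl relative to OsPE (0 up, 5 down) and 7 in Ossl relative to Osoc (3 up, 4 down). In percent of those tested, the CIPK genes called higher and lower were 4.17% and 16.7%, 0% and 20.8%, and 12.5% and 16.7%. The shares of all genes called higher and lower, with 1 probe set each, were 5.78% and 6.14%, 7.01% and 4.7%, and 10.1% and 6.99%. The CIPK shares called higher were thus near or below the background. Leaving out 1 array at a time gave 2 to 6, 4 to 6 and 4 to 7 calls: the 2 were left without either OsPE array or Osoc replicate 1, and the 4 of the last comparison without Osoc replicate 2.

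Ossl had the lowest signal of CIPK1 and CIPK5, and both comparisons with Ossl passed for each. Of all probe sets, 1.83% set Ossl apart in this direction. Such shares, here and below, and those at 1.5-fold or more were not taken with 1 probe set per gene. Calls are more frequent with 1 probe set per gene, so these shares are a low background for members. CIPK1 read 13812 and 13406 in OsPE, 12895 and 12672 in Osoc, and 8873 and 9366 in Ossl, so both Ossl arrays lay below all 4 others. It was 1.49-fold lower in Ossl than in OsPE (adjusted p = 2.79e-05) and 1.40-fold lower than in Osoc (adjusted p = 9.78e-05), and these calls passed with any 1 array left out. CIPK5 read 4912 and 4808 in OsPE, 4296 and 4608 in Osoc, and 3508 and 3696 in Ossl, again with Ossl lowest and no overlap. It was 1.35-fold lower than in OsPE (adjusted p = 0.0012) and 1.23-fold lower than in Osoc (adjusted p = 0.00919), the latter lost without Osoc replicate 2 (adjusted p = 0.097).

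CIPK6 and CIPK31 fell in Ossl against OsPE, with Osoc between the other lines. CIPK6 read 415.3 and 389.3 in OsPE, 319.1 and 294.6 in Osoc, and 227.1 and 194.8 in Ossl, with no overlap between any of the lines. It was 1.85-fold lower in Ossl than in OsPE (adjusted p = 0.00503, and 0.0604 without OsPE replicate 1), and the steps from OsPE to Osoc (log2 -0.37, adjusted p = 0.23) and from Osoc to Ossl (log2 -0.51, adjusted p = 0.0689) did not pass; the latter passed with quantile normalization (0.0485) and with the stricter filter (0.047). CIPK31, a kinase that carries the synonyms OsCK1 and CIPK3, read 4410 ± 15.3, 3802 ± 26.2 and 3332 ± 114 in OsPE, Osoc and Ossl. It was 1.32-fold lower in Ossl than in OsPE (adjusted p = 0.00146), and the difference between Osoc and OsPE missed the threshold (log2 -0.21, adjusted p = 0.0609) but passed in 5 alternatives, with quantile normalization at 0.0291. Its second probe set, which can bind related transcripts, did not pass for Ossl against OsPE (log2 0.15, adjusted p = 0.8).

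CIPK17 was the member with the largest difference between Osoc and OsPE among those called, and it set OsPE apart. It read 1299 and 1218 in OsPE, 730 and 702 in Osoc, and 827 and 770 in Ossl. Both OsPE arrays lay above the other 4, and 1.01% of all probe sets set OsPE apart in this direction. Its signal was 1.74-fold lower in Osoc (adjusted p = 0.000405) and 1.56-fold lower in Ossl (adjusted p = 0.00121), and Osoc and Ossl did not differ by the test (log2 0.15, adjusted p = 0.398). Both calls passed with any 1 array left out. CIPK17 and CIPK6 were the members called at 1.5-fold or more on their brightest probe set: 1 in Osoc against OsPE, 2 in Ossl against OsPE and 0 in Ossl against Osoc, against 2.76%, 3.8% and 4.83% of all probe sets.

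**Figure D3:**
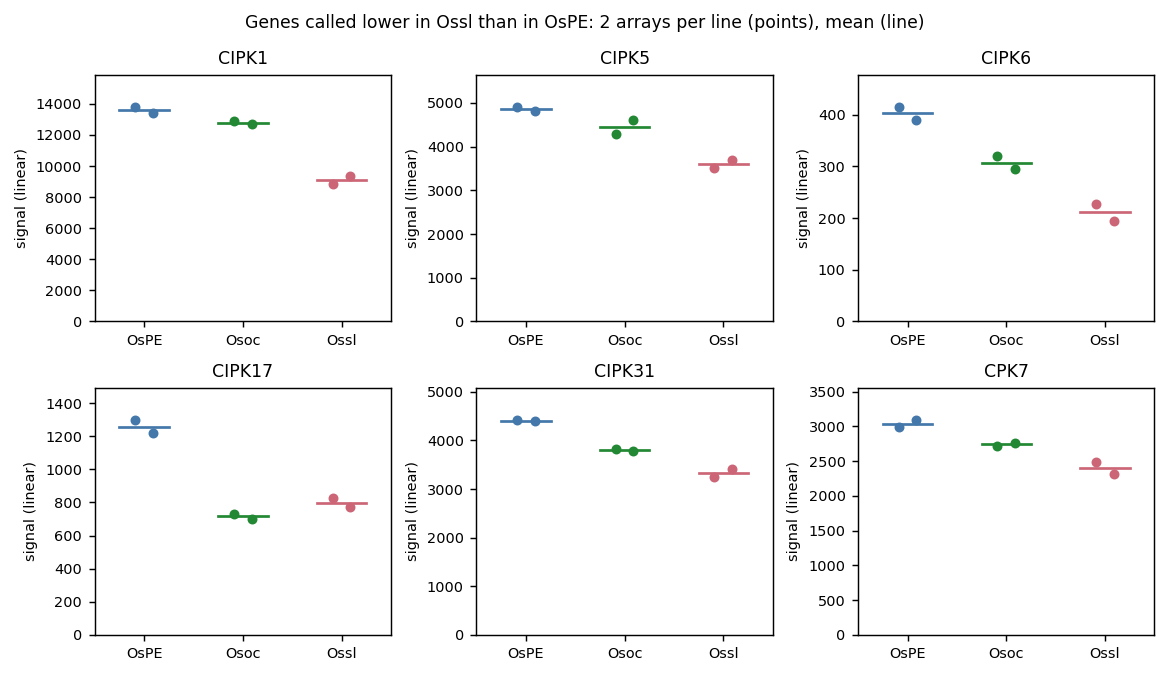
Signals (linear scale from 0) of the 6 members called lower in Ossl than in OsPE, with 2 arrays per line as points and their mean as a line. Ossl is lowest for all of them but CIPK17, for which Osoc is lowest; the Osoc arrays of these other 5 genes lie between OsPE and Ossl.

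CIPK10 was read by 4 probe sets, which shared the direction of the difference between Ossl and Osoc but not that between Ossl and OsPE. On all 4 the highest mean was that of Osoc. The brightest read 6534 and 6074 in OsPE, 7199 and 7075 in Osoc, and 5726 and 5837 in Ossl; only Ossl against Osoc passed (1.23-fold lower in Ossl, adjusted p = 0.00577, and 0.0534 without Osoc replicate 1). The second read 5625 and 5594, 7038 and 7457, and 4279 and 4336 in the same order of lines, with no overlap. On it CIPK10 was 1.29-fold higher in Osoc than in OsPE (adjusted p = 0.00234), 1.30-fold lower in Ossl than in OsPE (adjusted p = 0.00153) and 1.68-fold lower in Ossl than in Osoc (adjusted p = 5.51e-06).

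The third CIPK10 probe set went the other way between Ossl and OsPE. It read 2714 and 2785 in OsPE, 3971 and 4001 in Osoc, and 3181 and 3367 in Ossl, so that Ossl lay above OsPE: 1.19-fold higher (adjusted p = 0.0348, and up to 0.225 with 1 array left out). The rise from OsPE to Osoc was 1.45-fold (adjusted p = 0.000413), and Ossl was 1.22-fold lower than Osoc (adjusted p = 0.0139, and up to 0.0881 with 1 array left out). The fourth and dimmest read 773 and 847 in OsPE, 1335 and 1174 in Osoc, and 320 and 357 in Ossl. On it CIPK10 was 1.54-fold higher in Osoc than in OsPE (adjusted p = 0.00636, and up to 0.0848 with 1 array left out). It was 2.33-fold lower in Ossl than in OsPE (adjusted p = 3.14e-05) and 3.58-fold lower in Ossl than in Osoc (adjusted p = 8.18e-07). No direction is therefore given for CIPK10 as a gene between Ossl and OsPE, while Osoc stood above Ossl on all 4 probe sets.

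Within an array, the fourth CIPK10 probe set differed from the third by -1.79 and -1.70 on the log2 scale in OsPE, by -1.56 and -1.75 in Osoc, and by -3.25 and -3.18 in Ossl. These ratios show that the probe sets changed unequally in Ossl, and no test was made of them. The position of each probe set along the transcript was not analysed here. The Ossl arrays were also those with the lowest signals near the 5′ and the 3′ ends of the poly-A controls and the highest actin ratio, given above. The part of this in the CIPK10 values was not tested. Of the 36 calls for the members and the further CIPK10 probe sets, the 2 that passed without the variance trend were those of the fourth probe set of CIPK10 in Ossl, against OsPE (adjusted p = 0.0479) and against Osoc (adjusted p = 0.0294).

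**Figure D4:**
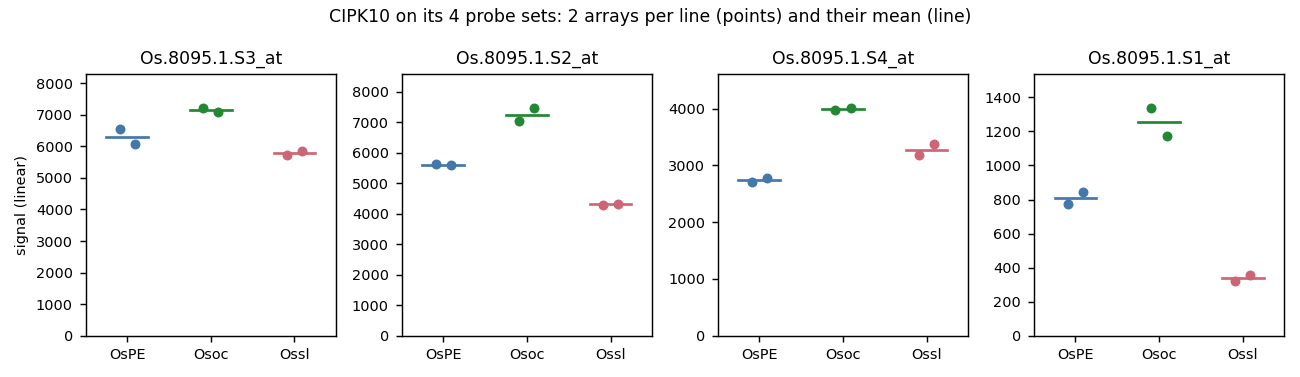
Signals of CIPK10 (linear scale from 0) on its 4 probe sets, from the brightest at the left, with 2 arrays per line as points and their mean as a line. Osoc is highest in each panel; Ossl lies above OsPE in the third panel and below it in the others.

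CIPK14, a kinase that in rice cells takes part in defence responses to microbial elicitors, was the only member called higher in Osoc than in OsPE on its brightest probe set; CIPK10 was so called on 3 dimmer ones. It read 4359 and 4381 in OsPE, 5984 and 6083 in Osoc, and 4819 and 4866 in Ossl. Both Osoc arrays thus lay above the other 4, and by the test 1.69% of all probe sets set Osoc apart in this direction. It was 1.38-fold higher in Osoc than in OsPE (adjusted p = 0.00048) and 1.25-fold lower in Ossl than in Osoc (adjusted p = 0.00354), and both calls passed with any 1 array left out. The difference between Ossl and OsPE did not pass (log2 0.15, adjusted p = 0.161).

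CIPK19 and CIPK32 were lowest in Osoc. CIPK19 read 4154 and 3936 in OsPE, 3477 and 3334 in Osoc, and 4360 and 4134 in Ossl. It was 1.19-fold lower in Osoc than in OsPE (adjusted p = 0.0395) and 1.25-fold higher in Ossl than in Osoc (adjusted p = 0.00755). CIPK32 read 2616 and 2735, 1880 and 2270, and 2538 and 2738, so that the Osoc arrays lay below the others but differed from each other. It was 1.29-fold lower in Osoc than in OsPE (adjusted p = 0.0271) and 1.27-fold higher in Ossl than in Osoc (adjusted p = 0.0264). These were among the least stable calls: against OsPE, the adjusted p reached 0.293 for CIPK19 and 0.219 for CIPK32 with 1 array left out, and both calls were lost under median centring. Against Ossl it reached 0.0733 for CIPK19 and 0.224 for CIPK32.

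CIPK18 and CIPK2 passed in 1 comparison each. CIPK18 read 705 ± 3.89, 500.4 ± 54.7 and 581 ± 4.17 in OsPE, Osoc and Ossl, and was 1.40-fold lower in Osoc than in OsPE (adjusted p = 0.0274, and up to 0.182 with 1 array left out). CIPK2 read 1188 ± 123, 949.95 ± 74.3 and 1374 ± 1.7, and was 1.44-fold higher in Ossl than in Osoc (adjusted p = 0.00454, and 0.0581 without Osoc replicate 2). This brightest CIPK2 probe set can bind related transcripts. A second CIPK2 probe set passed in the same direction (log2 0.74, adjusted p = 0.0267), and also against OsPE (log2 0.72, adjusted p = 0.0379), where the brightest did not (log2 0.21, adjusted p = 0.257). On that second probe set the Ossl arrays read 699.8 and 450.2, and both calls were lost without Ossl replicate 1.

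The other 13 CIPK genes did not pass in any comparison on their brightest probe set. CIPK7, known from rice for a part in cold tolerance, read 9461 ± 202, 10285 ± 481 and 9219 ± 74.9 in OsPE, Osoc and Ossl, with adjusted p of 0.105 or more. CIPK8 read 1622 ± 50.6, 1536 ± 74.5 and 1601 ± 15.6. CIPK23, which with a CBL partner activates the potassium channel AKT1 in rice roots, read 2108.5 ± 141, 2116 ± 575 and 1888 ± 264. The Osoc arrays of CIPK23 read 2523.1 and 1709.8, a span that holds all other arrays except an Ossl array at 1700.6, so this probe set is of little use for a difference of moderate size. Its second probe set was 1.48-fold lower in Osoc than in OsPE (adjusted p = 0.0102, and up to 0.117 in the alternatives that keep the trend). CIPK24, the kinase of the salt tolerance pathway known as SOS2 in Arabidopsis, lay between 1302.4 and 1549.5 on the 6 arrays. The nearest to the threshold was CIPK21, at 127.1 ± 19.7, 110.3 ± 35.5 and 217 ± 30.2, whose log2 difference of 0.91 between Ossl and Osoc had adjusted p = 0.0507.

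In the CPK kinases every call between Osoc and another line had Osoc lower. Of 18 tested, 3 were lower in Osoc than in OsPE and 0 higher, and 6 were higher in Ossl than in Osoc and 0 lower. Between Ossl and OsPE 1 was lower and 0 higher, which at 5.56% of those tested is close to the 4.7% of all genes called lower. Of all genes 6.14% were lower in Osoc than in OsPE and 10.1% higher in Ossl than in Osoc. The comparisons share the Osoc arrays, so the 3 and the 6 are not separate evidence. The median log2 difference of the CPK genes was -0.19 in Osoc relative to OsPE, -0.04 in Ossl relative to OsPE and 0.20 in Ossl relative to Osoc. At an unadjusted p below 0.05, 0 were higher and 6 lower, 1 and 1, and 6 and 1. No share of all genes at that threshold is given, so these numbers show no lean beyond the background. The number called at adjusted p below 0.05 changed with the arrays and the centring used. Without Osoc replicate 1 the count for Ossl against Osoc was 0, without Ossl replicate 2 and under median centring it was 2, without Ossl replicate 1 it was 3 and without Osoc replicate 2 it was 4. For Osoc against OsPE it was 1 without OsPE replicate 1 or Osoc replicate 1.

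CPK3, CPK4 and CPK24 set Osoc apart, as 1.82% of all probe sets did in this direction. CPK24, known from rice as a positive regulator of cold tolerance, read 2189 and 2226 in OsPE, 1478 and 1668 in Osoc, and 2132 and 1972 in Ossl. It was 1.40-fold lower in Osoc than in OsPE (adjusted p = 0.00354), a call that passed with any 1 array left out, and 1.30-fold higher in Ossl than in Osoc (adjusted p = 0.0104, and up to 0.105). CPK3 read 908.5 and 822 in OsPE, 582.8 and 627.5 in Osoc, and 850.8 and 818.6 in Ossl. In both genes the Osoc arrays lay below the 4 others, and OsPE and Ossl did not differ by the test. CPK3 was 1.42-fold lower in Osoc than in OsPE (adjusted p = 0.0121, and up to 0.137 with 1 array left out) and 1.37-fold higher in Ossl than in Osoc (adjusted p = 0.015, and up to 0.103).

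CPK4, which raises tolerance to salt and drought when overexpressed in rice, had the same order. It read 1948 and 2071 in OsPE, 1433 and 1620 in Osoc, and 1873 and 2069 in Ossl. It was 1.31-fold lower in Osoc than in OsPE (adjusted p = 0.0168, and up to 0.154 with 1 array left out) and 1.29-fold higher in Ossl than in Osoc (adjusted p = 0.0179, and up to 0.158).

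**Figure D5:**
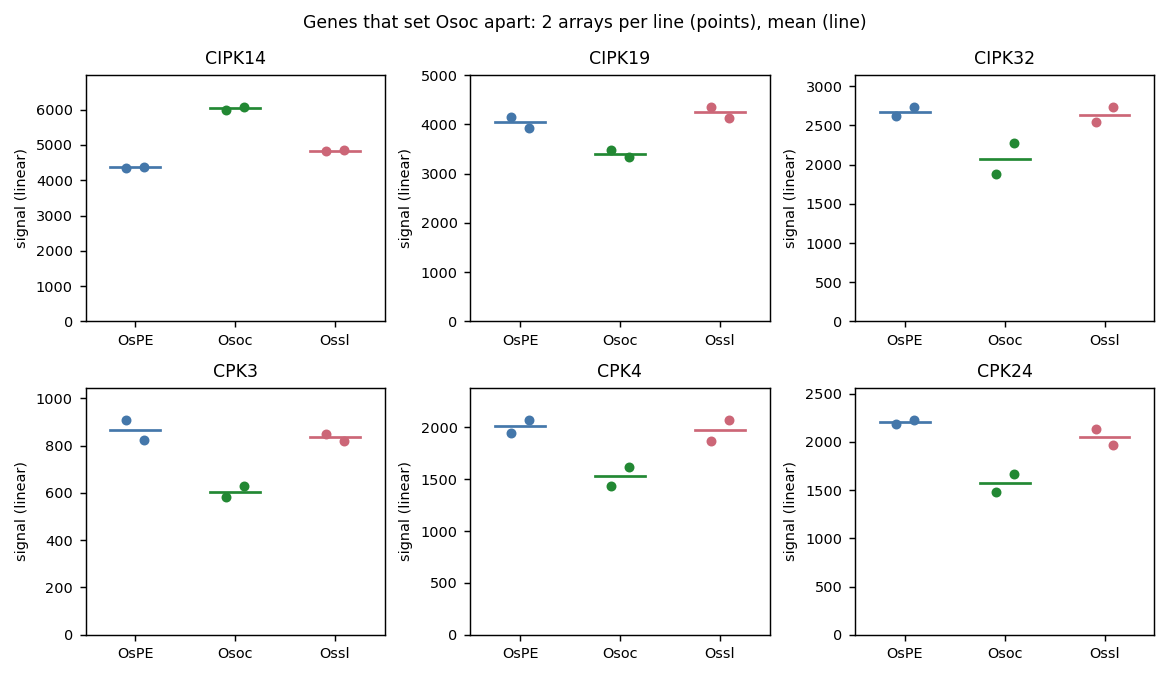
Signals (linear scale from 0) of the 6 members that set Osoc apart, with 2 arrays per line as points and their mean as a line. Osoc is highest for CIPK14 and lowest for the other 5 genes.

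CPK8, CPK13 and CPK18 passed in Ossl against Osoc alone. CPK8 read 2593 ± 15.3, 2217 ± 159 and 2912 ± 52.5 in OsPE, Osoc and Ossl, and was 1.31-fold higher in Ossl than in Osoc (adjusted p = 0.00408, and 0.052 without Osoc replicate 1). CPK13, also named OsCDPK7, a kinase whose overexpression raises tolerance to cold, salt and drought in rice, read 4716 ± 133, 4132 ± 86.4 and 5113 ± 376. It was 1.24-fold higher in Ossl than in Osoc (adjusted p = 0.0113, and up to 0.0914 with 1 array left out), while its dim second probe set had a log2 difference of -0.60 (adjusted p = 0.243). CPK18, which acts with the kinase MPK5 in rice defence, read 913 ± 50.8, 741 ± 11.2 and 981 ± 6.93 and was 1.32-fold higher in Ossl (adjusted p = 0.019, and up to 0.101 with 1 array left out). The probe set behind this CPK18 call can bind related transcripts, and the second, dim CPK18 probe set did not pass (log2 0.22, adjusted p = 0.814).

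CPK7 was the CPK gene called between Ossl and OsPE. It read 2988 and 3091 in OsPE, 2717 and 2766 in Osoc, and 2481 and 2311 in Ossl, with no overlap between the lines. It was 1.27-fold lower in Ossl than in OsPE (adjusted p = 0.00912, and up to 0.106 with 1 array left out). Its steps from OsPE to Osoc (log2 -0.15, adjusted p = 0.268) and from Osoc to Ossl (log2 -0.19, adjusted p = 0.105) did not pass.

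Of the CPK genes, 11 did not pass in any comparison. CPK19 read 5691 ± 174, 5412 ± 29.5 and 5467 ± 304 in OsPE, Osoc and Ossl, and CPK1 read 5025 ± 383, 5014 ± 106 and 4920 ± 108. The 95% interval of the CPK1 log2 difference between Osoc and OsPE ran from -0.15 to 0.14. CPK20, at 2893 ± 37.1, 2585 ± 208 and 2865 ± 144, had its lowest mean in Osoc, but did not pass (log2 -0.16, adjusted p = 0.261). CPK17, known for a part in the cold response of rice, lay between 1928.1 and 2228.8 on the 6 arrays, and CPK12, known from salt tolerance, between 286.6 and 467.6. CPK23, named SPK for its action on sucrose synthase in developing seeds, lay between 128.8 and 183.9.

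The members with low signals say little. CPK2 and CPK21 were not tested, with signals of 1.8 to 14.7 and 1.9 to 42.8. CBL5, CIPK20, CIPK30, CPK6, CPK22 and CPK29 were above the floor on fewer than 6 arrays, and 0 of them were called. CPK29 read 27.2 and 26.9 in Ossl and between 1.4 and 13.4 elsewhere, and did not pass (adjusted p = 0.218). A further 12 genes of these names in the reference table have no probe set of their own among those used: CBL1, CBL7, CIPK3, CIPK9, CIPK13, CIPK15, CIPK27, CIPK33, CPK11, CPK14, CPK25 and CPK28. In the reference gene order CIPK29 and CIPK2 lie next to each other, as do CIPK30 and CIPK12; for Ossl against OsPE the log2 difference was 0.52 for CIPK29 (adjusted p = 0.189) and 0.21 for CIPK2, and CIPK30 was near the floor.

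Other genes of calcium signalling were counted in the same fit. Their counts stand beside the shares of all genes called higher and lower, 5.78% and 6.14% in Osoc against OsPE, 7.01% and 4.7% in Ossl against OsPE, and 10.1% and 6.99% in Ossl against Osoc. Without the variance trend, 1 gene of the 3 lists that follow was called, CML4 in Ossl against Osoc (adjusted p = 0.0336). Of 26 calmodulin and calmodulin-like genes, whose products are sensors without a kinase domain, 7 were lower and 0 higher in Osoc than in OsPE, 6 were higher and 2 lower in Ossl than in OsPE, and 10 were higher and 1 lower in Ossl than in Osoc. With 1 array left out, the calls numbered 3 to 8, 6 to 7 and 6 to 8, fewest without OsPE replicate 2 for the first and without Osoc replicate 1 for the last. Their median log2 differences were -0.06, 0.17 and 0.28. CML4 read 2967 ± 208 in OsPE, 1741 ± 129 in Osoc and 5088 ± 320 in Ossl. It was 1.70-fold lower in Osoc than in OsPE (adjusted p = 0.000166), 1.71-fold higher in Ossl than in OsPE (adjusted p = 7.09e-05) and 2.91-fold higher in Ossl than in Osoc (adjusted p = 2.04e-07). CML16, at 9337 ± 191, 6053 ± 26.9 and 7079 ± 204, was 1.54-fold lower in Osoc than in OsPE (adjusted p = 4.55e-05) and 1.32-fold lower in Ossl than in OsPE (adjusted p = 0.000695). CML31, at 1853 ± 97.7, 1946 ± 34.3 and 2832 ± 120, was 1.52-fold higher in Ossl than in OsPE (adjusted p = 0.000257).

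Among 11 calcium channel and pump genes, 3 were lower and 0 higher in Osoc than in OsPE, 0 differed between Ossl and OsPE, and 5 were higher and 0 lower in Ossl than in Osoc. At an unadjusted p below 0.05 the count between Ossl and OsPE was 2 higher and 2 lower, and with 11 genes 0 calls are near the background. With 1 array left out, the calls numbered 1 to 4 for Osoc against OsPE and 2 to 5 for Ossl against Osoc; the 1 was left without either OsPE array or Osoc replicate 2, and the 2 without Osoc replicate 2. The vacuolar calcium channel gene OsTPC1 read 6064 ± 116, 4560 ± 215 and 6183 ± 385 in OsPE, Osoc and Ossl, and was lower in Osoc than in OsPE (log2 -0.41, adjusted p = 0.00229). Its second probe set was lower in Osoc and in Ossl than in OsPE (log2 -0.32 and -0.33). The calcium exchanger gene CAX3 read 1282 ± 3.82, 921 ± 62.9 and 1294 ± 36.3, again lowest in Osoc (log2 0.48 for Ossl against Osoc, adjusted p = 0.00386). CAX2, at 205 ± 54, 150.4 ± 39.3 and 351 ± 4.95, was 2.24-fold higher in Ossl than in Osoc (adjusted p = 0.00628, and 0.0662 without Osoc replicate 2).

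Of 25 genes of potassium and ammonium transport, a group that holds known targets of CIPK kinases, 23 were tested. In Osoc 3 were lower than in OsPE and 0 higher, a count that was 0 under median centring and without either OsPE array or Osoc replicate 2. In Ossl 3 were higher and 2 lower than in OsPE, and 5 were higher and 0 lower than in Osoc, so that the counts against OsPE are near the background; with 1 array left out these calls numbered 1 to 5 (fewest without OsPE replicate 1) and 2 to 7 (2 without Osoc replicate 2 and 3 without Ossl replicate 2). The potassium transporter gene HAK1 read 538 ± 57.8, 589 ± 61.5 and 1203 ± 96.2 in OsPE, Osoc and Ossl, and was 2.20-fold higher in Ossl than in OsPE (adjusted p = 8.67e-05). HAK16, at 1486 ± 56.5, 1146 ± 77.4 and 1930 ± 73.3, was 1.68-fold higher in Ossl than in Osoc (adjusted p = 0.000123). HAK17, at 7033 ± 585, 6883 ± 113 and 9058 ± 966, was 1.31-fold higher in Ossl than in Osoc (adjusted p = 0.00628, and up to 0.0654 in the alternatives that keep the trend). The channel gene AKT1 did not pass.

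The NADPH oxidase gene OsrbohB, of a family that makes superoxide and is activated by calcium and by CPK kinases, was the single gene of its list. It read 7402 ± 186, 5894 ± 90.7 and 4961 ± 47.2 in OsPE, Osoc and Ossl. It was 1.49-fold lower in Ossl than in OsPE (adjusted p = 4.42e-05) and lower in Osoc than in OsPE (log2 -0.33, adjusted p = 0.00406, and 0.0735 without OsPE replicate 2). The calcium and calmodulin dependent kinase gene CCaMK did not pass, at 884 ± 58.4, 923 ± 121 and 804 ± 111.

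Markers of the seedling's parts and of the grain were read beside these results. The shoot list of 3 genes, led by the light-harvesting gene CAB2R and the Rubisco gene OsrbcS, summed to signals of 86513 and 85189 in OsPE, 83565 and 80338 in Osoc, and 87092 and 105259 in Ossl, and CAB2R was higher in Ossl than in Osoc (adjusted p = 0.0341). The root list of 3 genes summed to 430.3 and 314.2, 304.6 and 314.2, and 255.9 and 252.0, and its iron transporter gene osysl15 was lower in Ossl than in OsPE (log2 -0.73, adjusted p = 0.0464), while its dimmer genes NAS1 and IRT1 had log2 differences of 0.26 and 0.67 that did not pass. Of 8 genes with names of grain proteins, which a seedling should lack, 6 were tested. The highest signal of this list was 2859.8, so its signals cannot be read as grain tissue in these seedlings. The 8 genes summed to 4525.6 and 4264.2 in OsPE, 3354.6 and 3547.5 in Osoc, and 4236.4 and 4182.4 in Ossl. They were led by GLB1, which was lower in Osoc than in both other lines (adjusted p = 0.0058 and 0.00252), the direction of CPK3, CPK4 and CPK24. The glutelin gene GLUA-1 was near 0, with means of 1.55 to 16.5. The part of these marker differences in the results on the kinases was not tested.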

How the data were processed

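Each array came with 1 linear intensity for every probe set, a signal made by the authors with GCOS 1.2, per the submitters' processing notes; for the signal algorithm there is no statement in the sources used here. The equal trimmed means (without the lowest and highest 2% of probe sets) show arrays scaled to a common mean, and this scaling was kept. The number of arrays limits the precision.

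The 123 control probe sets were left out of the tests. Of 57258 others, 39629 lay above the 40th percentile of their array on at least 2 of 6 arrays and were tested on log2(signal + 16), which understates folds at low signals. A single linear model of all 6 arrays was fitted with limma 3.58.1 (R 4.3.3; eBayes used a variance trend), with 3 residual degrees of freedom and a prior of 8.98. Its moderated tests were two-sided, with Benjamini-Hochberg adjustment over all probe sets tested and a threshold of 0.05. A line was set apart by a gene when both comparisons with it passed in the same direction.

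Symbols came from the platform's probe-to-gene table and from RefSeq gene names (assembly ASM3414082v1, Japonica), which also gave the gene order; differences in probe sequence between cultivars were not examined. The members and the other lists were chosen with earlier results of these data known. Every member called is named, with the brightest 3 not called of each family, and up to 3 genes with the lowest adjusted p of each other list; CIPK21, CIPK24, CPK12, CPK17, CPK23, AKT1 and the members with low signals were added after their values were seen. Haemoglobin genes that matched the grain list by their letters were dropped. Replicate numbers did not pair the arrays: deviations from the line means of arrays with the same number correlated at 0.000239, 0.000999 and 0.0145. The alternatives were other offsets, normalizations, filters, variance models and thresholds, the replicate block, fewer arrays, and averaging the probe sets of a gene. Their use on the families and other lists was added after the data were seen. Python 3.11.15 with pandas 2.3.3 and matplotlib 3.10.9 served for tables and plots.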

Additional observations from a re-analysis of the deposited data

How the results depend on the processing

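Members called numbered 8 in Osoc relative to OsPE, 6 in Ossl relative to OsPE and 13 in Ossl relative to Osoc. The F test called 18. These counts stayed within 1.5 times under other offsets, quantile normalization, no filter or a stricter one, robust variance and averaged probe sets. So did the first 3 in fits of only the arrays compared, for which there was no F test. Median centring gave 4, 6 and 8, and 10 by the F test, beside 5.34%, 5.96%, 8.71% and 11.6% of all probe sets. A threshold of 0.01 gave 3, 6 and 7, and 9 by the F test, beside 3.53%, 4.03%, 5.86% and 7.73%. A minimum of 1.5-fold left 1, 2 and 0. Without the variance trend all 4 counts were 0, with smallest adjusted p among the members of 0.108, 0.0707 and 0.0504. Every member count thus rests on that trend. The fit without it called 0.0707%, 0.964% and 1.01% of all probe sets, and 1.09% by the F test. With 1 array left out the counts ran from 3 to 9, 4 to 6 and 6 to 13, and from 8 to 16 by the F test. Of the 36 calls given for members and the further CIPK10 probe sets, 20 were kept without Osoc replicate 1 and 24 under median centring, the fewest apart from the fit without the trend and the mean of probe sets, which kept 21 of 27. CPK13 reversed between Ossl and Osoc with the mean of its probe sets (log2 -0.15, adjusted p = 0.559). The same averaging ended calls of CIPK2, CIPK31, CIPK32 and CPK18, whose further probe sets include dim ones. It added calls of CIPK10 against OsPE, higher in Osoc (log2 0.43, adjusted p = 0.00186) and lower in Ossl (log2 -0.37, adjusted p = 0.00388). For Ossl against OsPE that mean spans CIPK10 probe sets of opposite direction. The causes of these changes were not tested.

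The replicate number as a block left 36 of 36 calls in place, with 8, 6 and 14 members called and 18 by the F test, and the numbers do not pair the arrays. Genes with signals near the floor have wide intervals and were not called.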
